A study of Mus musculus with 12 samples.

Results

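The MHC class I antigen presentation genes measured here were 10 genes, namely the heavy chains H2-K1 and H2-D1, the light chain B2m, the peptide transporter subunits Tap1 and Tap2, the bridging chaperone Tapbp, the immunoproteasome subunits Psmb8, Psmb9 and Psmb10, and the regulator Nlrc5. Their probes were the spots other than control spots whose gene name on the array was 1 of these symbols, which gave 17 probes on 24 spots, of 61307 probes with 50090 distinct names on 61657 spots in all. All 10 genes had a probe, and all 17 probes were well above background on all 12 arrays and were tested. Each gene was read from its brightest probe that was not saturated on any array. RNA came from resting B (RB) cells, which the methods isolated from spleen by removing CD43-positive cells. All groups shared the BALB/c strain, female sex and an age of 6 weeks in the labels, although the methods speak of male or female mice. The 6 conditions, each with 2 arrays, were unstimulated cells, cells given Pam2CSK4 (Pam2csk4 in the labels, a synthetic lipopeptide ligand of TLR2), cells given anti-CD86, cells given anti-CD86 with Pam2CSK4 (TLR2.CD86), cells given anti-CD40, and cells given anti-CD40 with Pam2CSK4 (written TLR2.CD40 below). All stimulations lasted 4 h. The study calls the 2 arrays of a condition biological replicates, and nothing says whether mice were pooled. No isotype antibody array was analysed here, so that conditions with an antibody were compared with cells that had received none.

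MHC class I molecules display peptides from inside the cell to CD8 T cells. The proteasome cuts proteins into peptides, the TAP transporter moves them into the endoplasmic reticulum, and tapasin holds TAP next to a new heavy chain and beta 2 microglobulin until a peptide is bound. In lymphoid cells and after interferon gamma, the catalytic subunits Psmb8, Psmb9 and Psmb10 take the place of Psmb5, Psmb6 and Psmb7, and Nlrc5 works as a transactivator of the class I genes. Psmb9, Tap1, Psmb8 and Tap2 are neighbours in this order on chromosome 17 in the RefSeq annotation, inside the MHC class II region. B2m lies on chromosome 2, and Psmb10 and Nlrc5 on chromosome 8.

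The upstream regions are shown because NF-kB and interferon regulatory factors act on class I genes. Of the 10 genes, 8 had an entry in the RefSeq promoter table (assembly GRCm38.p6), and Tap2 and Nlrc5 were not in it. H2-K1 had 2 entries, and the first of these was used. The 250 bases before the annotated start were searched on both strands for GAANNGAAA (the core of an IRF site, where N is any base), an NF-kB consensus of 10 letters, TGACG (as in the X2 box of class I promoters) and CCAAT. In the sequences below, which read 5′ to 3′ in the direction of the gene, capitals mark these matches. The only overlap was between NF-kB matches 1 base apart in H2-K1 and H2-D1.
H2-K1 (chr17:34000348-34000597, minus strand): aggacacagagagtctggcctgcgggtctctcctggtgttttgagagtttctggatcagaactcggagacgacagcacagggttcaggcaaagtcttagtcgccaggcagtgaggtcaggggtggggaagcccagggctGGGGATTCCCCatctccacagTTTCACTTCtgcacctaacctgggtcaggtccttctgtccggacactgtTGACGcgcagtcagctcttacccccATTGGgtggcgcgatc
H2-D1 (chr17:35262844-35263093, plus strand): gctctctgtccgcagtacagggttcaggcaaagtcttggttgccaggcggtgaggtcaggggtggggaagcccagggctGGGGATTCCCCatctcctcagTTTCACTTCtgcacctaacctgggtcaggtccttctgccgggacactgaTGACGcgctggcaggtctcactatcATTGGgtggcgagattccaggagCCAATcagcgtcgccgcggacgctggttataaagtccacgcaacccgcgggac
B2m (chr2:122147437-122147686, plus strand): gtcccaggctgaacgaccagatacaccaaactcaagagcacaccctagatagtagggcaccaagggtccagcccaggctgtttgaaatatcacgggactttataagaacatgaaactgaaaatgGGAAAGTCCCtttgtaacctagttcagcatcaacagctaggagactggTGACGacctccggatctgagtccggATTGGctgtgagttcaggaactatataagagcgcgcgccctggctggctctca
Tap1 (chr17:34187306-34187555, plus strand): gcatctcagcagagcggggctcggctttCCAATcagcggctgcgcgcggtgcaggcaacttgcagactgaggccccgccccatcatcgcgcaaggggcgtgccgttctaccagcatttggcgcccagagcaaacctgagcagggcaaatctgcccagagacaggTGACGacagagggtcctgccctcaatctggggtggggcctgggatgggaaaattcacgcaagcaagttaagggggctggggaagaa
H2-K1 and H2-D1 held the same NF-kB letters and the same IRF letters, in the same order and at the same spacing. Aligned without gaps at an offset of 60 bases, the upstream regions of both heavy chains were identical at 166 of 190 positions (87.4%). B2m had an NF-kB match, a TGACG match and a CCAAT match, and no IRF match of these letters. The Tap1 window is also the Psmb9 promoter read from the other strand, since the starts of both genes are 226 bases apart and their windows share 225 bases. Psmb8 and Psmb10 held none of the 4 motifs in this window. Over all 8 members, NF-kB letters were found in 3, IRF letters in 2, TGACG in 5 and CCAAT in 6. The TGACG and CCAAT matches of Tap1 and Psmb9 are the same bases read from both strands and were counted for each gene. The H2-K1 and H2-D1 windows are also alike, so that the 8 windows are not independent. Over 32851 promoter windows of the same length, NF-kB letters were found in 7.25%, IRF letters in 6.31%, TGACG in 17.8% and CCAAT in 33.8%. The reference is the C57BL/6J genome, whose class I alleles differ from those of BALB/c mice.

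**Figure D1:**
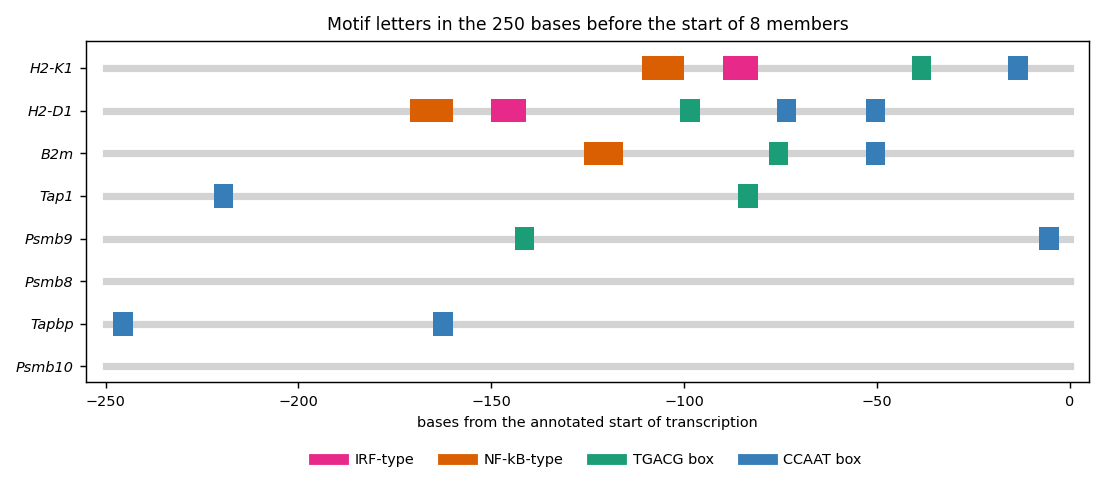
Positions of the motif matches (coloured blocks) in the 250 bases before the annotated start of 8 members, with the distance from the start in bases on the x axis and a gene on each row. The NF-kB, IRF, TGACG and CCAAT matches of H2-K1 recur in H2-D1 shifted by 60 bases, and the Psmb8 and Psmb10 rows are empty. H2-D1 has a further CCAAT match 53 to 49 bases before its start. At the same shift, the matching place in H2-K1 lies past the end of the window, so it was not searched.

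What each array probe reads is set by its 60 bases, and some of the probes on which the results turn are printed here as the scanner files give them. Only probes with at least 1 reading frame without a stop codon were printed, which leaves out that of Psmb10. The bright Tap1 probe is not printed either. The H2-K1 probes carry the designed sequence and not necessarily the BALB/c allele.
H2-K1, probe used: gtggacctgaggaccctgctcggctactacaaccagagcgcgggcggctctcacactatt
H2-K1, dimmer probe: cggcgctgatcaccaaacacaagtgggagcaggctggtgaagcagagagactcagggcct
Tap1, dimmer probe: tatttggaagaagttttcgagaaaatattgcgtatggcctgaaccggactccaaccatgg
Tap2: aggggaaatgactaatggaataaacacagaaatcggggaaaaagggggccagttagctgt
Psmb8, probe used: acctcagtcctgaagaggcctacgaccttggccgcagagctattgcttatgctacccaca
Nlrc5: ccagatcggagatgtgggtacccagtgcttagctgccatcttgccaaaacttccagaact

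The arrays lay on 2 slides that matched 2 scan runs. Slide 1 held 8 arrays, among them both unstimulated and both TLR2.CD40 arrays, and each other condition had replicate 1 on slide 1 and replicate 2 on slide 2. Slide 1 arrays had 46.6% to 50.6% of their spots well above background, and slide 2 arrays 48.7% to 60.6%. The second anti-CD40 array stood apart at 60.6%, above 55.9% on the next, with a median log2 signal of 5.68 before scaling against 4.12 to 5.06 on the other 11 arrays. With the slide as a term, 8 of the 10 members differed between slides, against 18074 of 31599 probes in all. On slide 2, B2m read 0.30 higher and the 7 other members read 0.29 (H2-D1) to 0.45 (Psmb9) lower on the log2 scale, whereas the values for Tap2 (0.01) and Nlrc5 (-0.01) lay close to 0. Each change is therefore given without a slide term and, where this alters the call, with the slide as a block and on slide 1 alone. TLR2.CD40 and unstimulated cells were on the same slide. Slide 1 alone leaves 1 array of each other condition. A test there takes its spread only from the unstimulated and TLR2.CD40 arrays. With 2 arrays a condition, p-values measure only the spread between these arrays, and in bulk RNA a change in the number of cells of a type cannot be told apart from a change in RNA per cell.

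**Figure D2:**
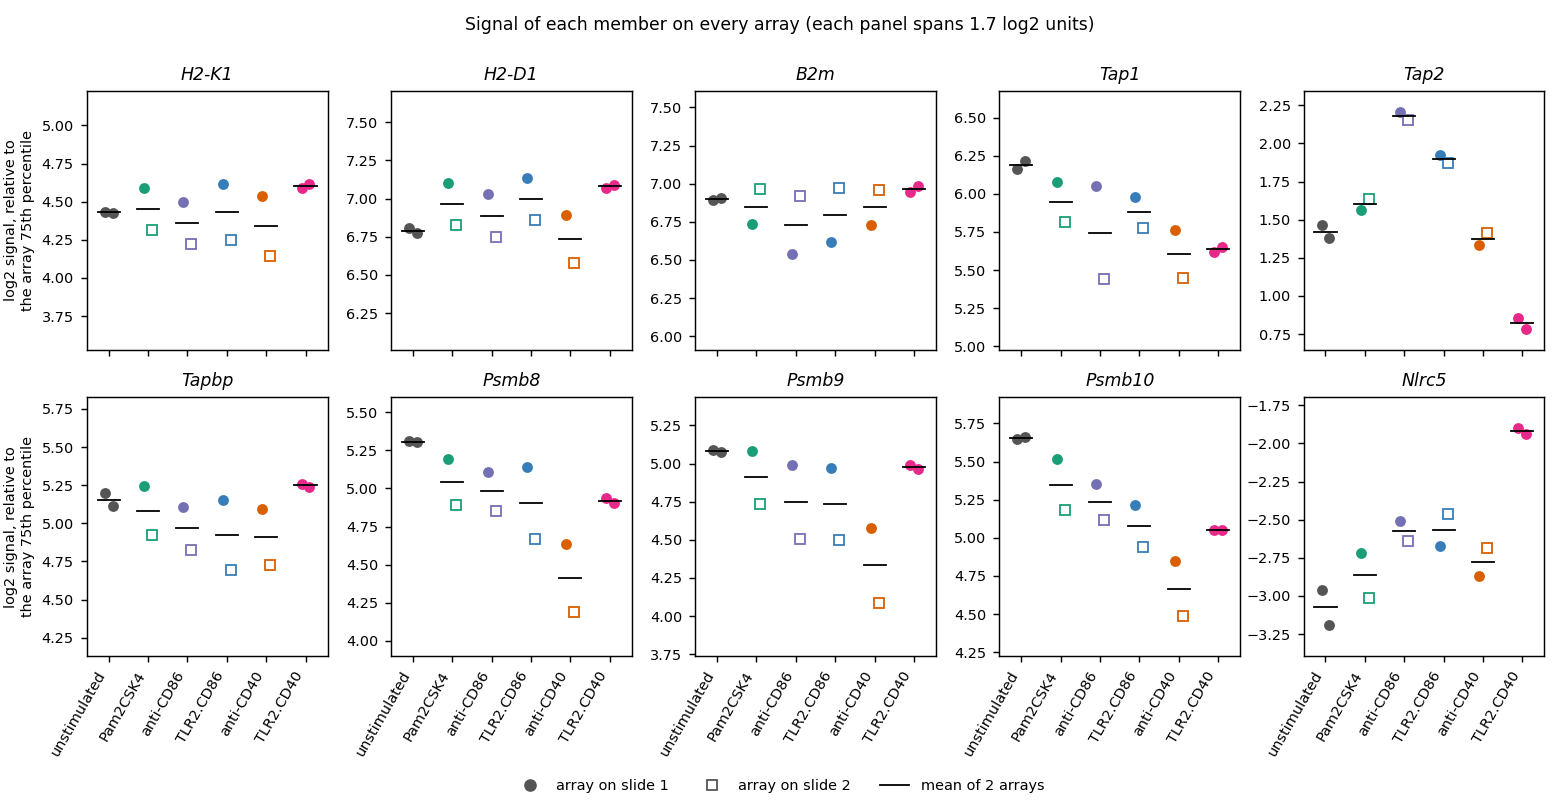
Log2 signal above each array's 75th percentile (y axis) for each of the 10 members in 6 conditions (x axis). Circles are arrays on slide 1, open squares arrays on slide 2 and lines the mean of 2 arrays. Tap2 and Nlrc5 show close pairs in most conditions, whereas Psmb8, Psmb9 and Psmb10 read lower on slide 2 in every condition that spans both slides.

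Few members passed the test after a single signal, and Tap2, Nlrc5, Psmb8 and Psmb10 carried the calls made without a slide term (limma, Benjamini-Hochberg adjusted p under 0.05 over all 31599 probes). After Pam2CSK4, 0 of 10 members were called, 0 had an unadjusted p under 0.05, and 0.136% of all probes were called. After anti-CD86, 1 of 10 was called (2.14% of all probes), and after TLR2.CD86 also 1 of 10 (10.6%). After anti-CD40, 2 of 10 were called (16.7%), and after TLR2.CD40 also 2 of 10 (18.2%). The shares of members were thus near the share of all probes after TLR2.CD86, anti-CD40 and TLR2.CD40. In the fit with the slide as a block, the members called numbered 1 of 10 after Pam2CSK4 (10.8% of all probes), 5 after anti-CD86 (28.3%), 5 after TLR2.CD86 (34.9%), 5 after anti-CD40 (37.1%) and 7 after TLR2.CD40 (47.4%). A difference of any kind among the 6 conditions was called for 3 of 10 members, Tap2, Nlrc5 and Psmb10, against 20.1% of all probes (moderated F-test).

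**Figure D3:**
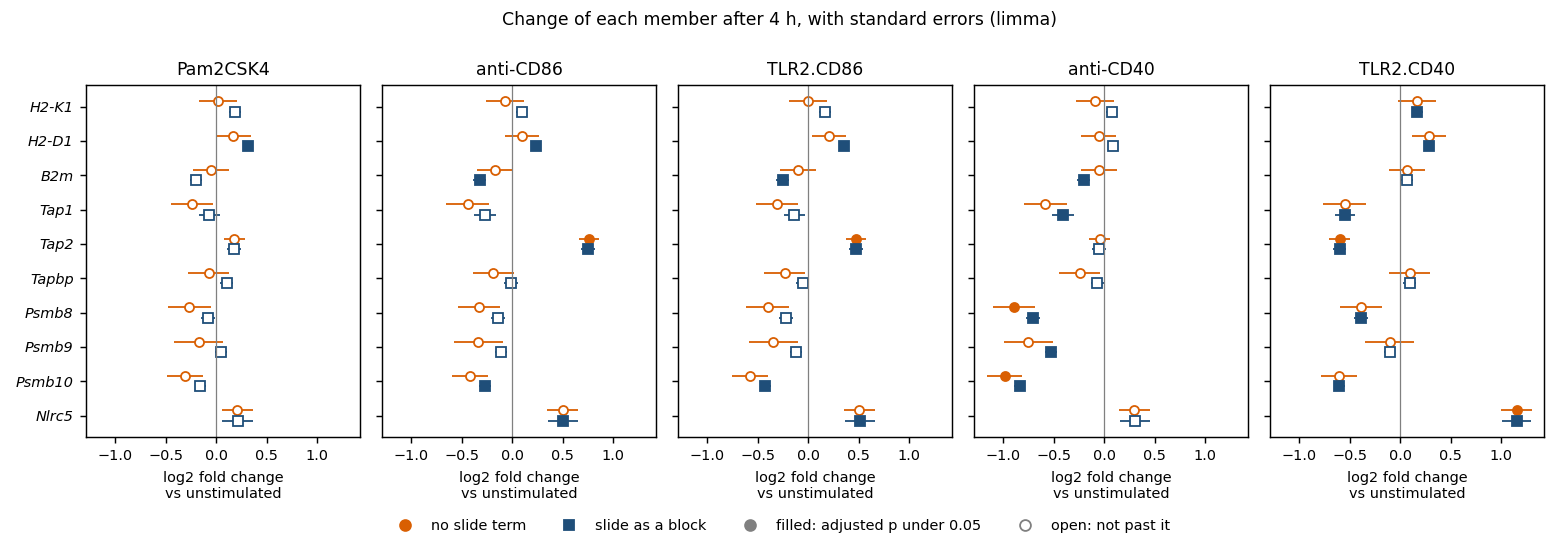
Log2 fold change against unstimulated cells (x axis) of each member (y axis) in 5 panels, 1 for each stimulus, with bars of 1 standard error. Circles are the fit without a slide term and squares the fit with a slide block, and filled symbols passed an adjusted p of 0.05. Tap2 lies to the right of 0 after anti-CD86 and TLR2.CD86 and to the left after TLR2.CD40, where Nlrc5 lies at 1.15.

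The class I heavy chains and B2m had narrow ranges of condition means. Near-identical class I genes can share probe signal, and whether the H2-K1 and H2-D1 probes also read other class I genes was not tested. H2-K1, a classical heavy chain, had a log2 signal of 4.43 on both unstimulated arrays, and its means over the 6 conditions spanned 0.26 on the log2 scale, from 4.34 ± 0.28 (SD, n = 2) after anti-CD40 to 4.60 ± 0.02 after TLR2.CD40. The difference between TLR2.CD40 and unstimulated cells was 0.17 ± 0.19 (log2 fold change ± SE) with an adjusted p of 0.596, and it was called with a slide block (0.17 ± 0.05) but not on slide 1 alone. Both TLR2.CD40 arrays, at 4.59 and 4.61, lay above both unstimulated arrays. H2-D1, the other heavy chain, read 6.81 and 6.77 in unstimulated cells and 7.07 and 7.09 after TLR2.CD40, without overlap, a difference of 0.29 ± 0.17 (adjusted p = 0.28). H2-D1 was called with the slide as a block after Pam2CSK4 (0.32 ± 0.05), anti-CD86 (0.24 ± 0.05), TLR2.CD86 (0.35 ± 0.05) and TLR2.CD40 (0.29 ± 0.05), while scaling on the array median turned the first 3 of these negative (-0.02, -0.04 and -0.08). On slide 1 alone, the TLR2.CD40 difference of H2-D1 was called.

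B2m, the invariant light chain, read 6.89 and 6.90 in unstimulated cells and between 6.54 and 6.98 on all arrays, and no comparison called it without a slide term. Its arrays on slide 1 lay below the unstimulated arrays after Pam2CSK4 (6.73), anti-CD86 (6.54), TLR2.CD86 (6.62) and anti-CD40 (6.73), and its arrays on slide 2 lay above them (6.92 to 6.97). B2m was called in the slide block fit after anti-CD86 (-0.32 ± 0.06), TLR2.CD86 (-0.25 ± 0.06) and anti-CD40 (-0.20 ± 0.06). Quantile normalization turned these 3 differences positive, and on slide 1 alone none was called. The brightest probe of B2m was saturated on 11 arrays and the brightest of H2-K1 on all 12, and a saturated probe gives only a bound. The dimmer unsaturated probe of H2-K1 gave larger values than the probe used, from 0.33 ± 0.15 after anti-CD40 to 0.46 ± 0.15 after TLR2.CD40, without a call, and from 0.44 ± 0.06 to 0.57 ± 0.06 with the slide as a block, where all 5 stimuli were called, although scaling on the array median turned its anti-CD40 value to -0.24. The second H2-D1 probe had the same sign as the first after all 5 stimuli without a slide term.

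Tap2 had the widest range of the 10 members by condition means, 1.36 on the log2 scale or 2.57-fold. Tap2 forms the peptide channel of the TAP transporter together with Tap1. Its log2 signal was 1.46 and 1.38 in unstimulated cells, 1.57 and 1.64 after Pam2CSK4, 2.21 and 2.15 after anti-CD86, 1.93 and 1.87 after TLR2.CD86, 1.33 and 1.41 after anti-CD40, and 0.86 and 0.78 after TLR2.CD40. The anti-CD86 arrays were the highest and the TLR2.CD40 arrays the lowest, and neither pair overlapped any other condition. In that order the neighbours unstimulated and anti-CD40 overlapped. Against unstimulated cells, Tap2 rose 1.69-fold after anti-CD86 (log2 fold change 0.76 ± 0.10, adjusted p = 0.0255) and 1.39-fold after TLR2.CD86 (0.48 ± 0.10, adjusted p = 0.0285), and it fell 1.52-fold after TLR2.CD40 (-0.60 ± 0.10, adjusted p = 0.00595). After Pam2CSK4 the difference was 0.18 ± 0.10 (adjusted p = 0.396) and after anti-CD40 -0.04 ± 0.10 (adjusted p = 0.793). All 3 calls held with the slide as a block, and all 3 ended with scaling on the array median, where the TLR2.CD86 difference was only 0.19 (adjusted p = 0.85). On slide 1 alone the adjusted p for anti-CD86 was 0.0512, with a log2 fold change of 0.79. The anti-CD86 call was lost without either unstimulated array (adjusted p = 0.154 and 0.207), either anti-CD86 array (0.13 and 0.115) or either TLR2.CD40 array (0.0596 each), and the TLR2.CD40 call without unstimulated replicate 1 (0.0623) or TLR2.CD40 replicate 2 (0.0584). The TLR2.CD86 call was lost without any 1 of the unstimulated, TLR2.CD86, anti-CD86 or TLR2.CD40 arrays (adjusted p from 0.0519 to 0.186).

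Tap1, the other TAP subunit, differed in sign between its 2 probes after Pam2CSK4, anti-CD86 and TLR2.CD86 and not after anti-CD40 or TLR2.CD40. The array annotates the probes to different RefSeq transcripts of the gene. The bright probe, which was used here, read 6.16 and 6.21 in unstimulated cells, 6.07 and 5.82 after Pam2CSK4, 6.05 and 5.44 after anti-CD86, 5.98 and 5.77 after TLR2.CD86, 5.76 and 5.45 after anti-CD40, and 5.62 and 5.65 after TLR2.CD40. All 10 stimulated arrays lay below both unstimulated arrays. The differences were -0.58 ± 0.21 after anti-CD40 (adjusted p = 0.0937) and -0.55 ± 0.21 after TLR2.CD40 (adjusted p = 0.111). Both were called with the slide as a block (-0.41 ± 0.10 and -0.55 ± 0.10). The TLR2.CD40 difference was also called on slide 1 alone, where anti-CD40 had a single array. The dimmer probe, averaged over 8 spots, read -0.30 and -0.31 in unstimulated cells, 0.37 and 0.24 after anti-CD86 and 0.41 and 0.07 after TLR2.CD86. It gave 0.62 ± 0.16 after anti-CD86 (adjusted p = 0.0837) and 0.54 ± 0.16 after TLR2.CD86 (adjusted p = 0.0671), both called with the slide as a block (0.74 ± 0.08 and 0.67 ± 0.08). After anti-CD40 and TLR2.CD40 the dimmer probe gave -0.13 ± 0.16 and -0.04 ± 0.16, against -0.58 and -0.55 for the bright probe. The dimmer Tap1 probe and the only Tap2 probe thus both had their highest means after anti-CD86 and TLR2.CD86. The dim probe of Tapbp did as well, with mean log2 signals of 0.29 and 0.35. The bright Tap1 probe instead had its highest mean, 6.19, in unstimulated cells. Tapbp, which encodes tapasin, passed no test against unstimulated cells under either fit. Its bright probe ranged from 4.91 ± 0.26 after anti-CD40 to 5.25 ± 0.01 after TLR2.CD40, and its dim probe gave 0.44 ± 0.22 after TLR2.CD86 where the bright probe gave -0.23 ± 0.20.

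**Figure D4:**
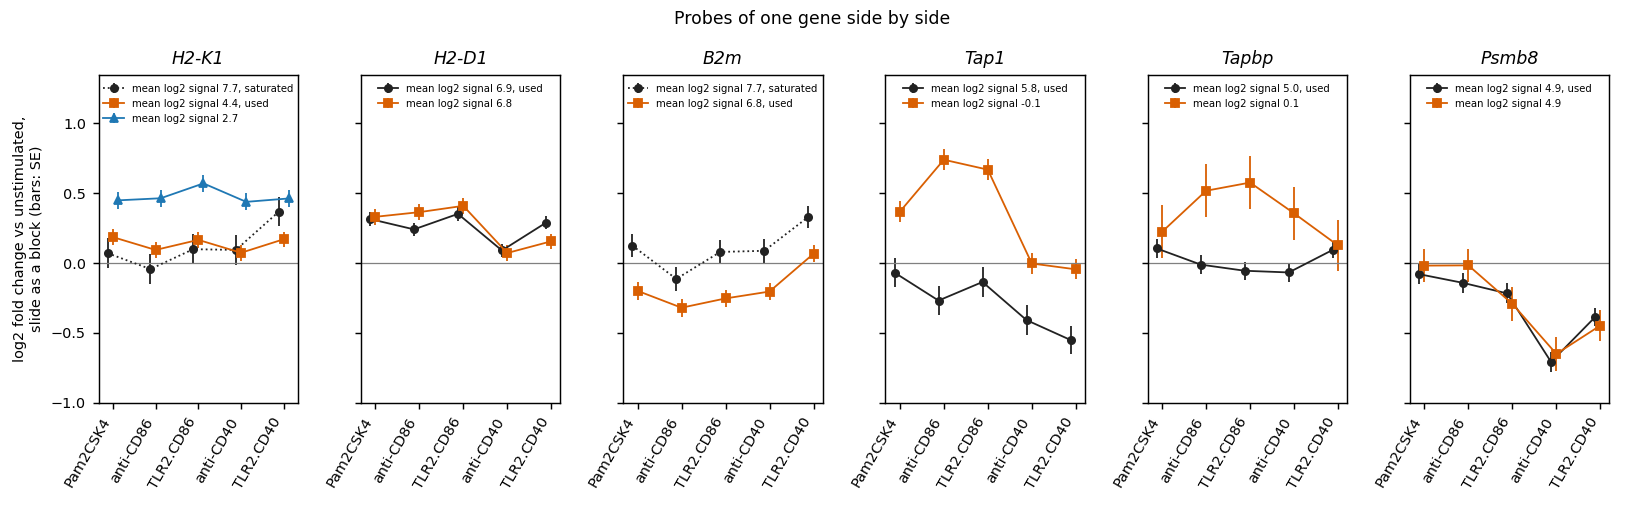
Log2 fold change against unstimulated cells with the slide as a block (y axis, bars of 1 standard error) after 5 stimuli (x axis) for the 6 members with more than 1 probe. Dotted lines are saturated probes and the legends give the mean log2 signal of each. The probes of Psmb8 and H2-D1 run together, whereas those of Tap1 part, at 0.74 and -0.27 after anti-CD86.

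The immunoproteasome subunits were lowest after anti-CD40. Psmb10, the subunit that replaces Psmb7, read 5.65 and 5.66 in unstimulated cells, 5.52 and 5.18 after Pam2CSK4, 5.35 and 5.12 after anti-CD86, 5.22 and 4.94 after TLR2.CD86, 4.85 and 4.49 after anti-CD40, and 5.05 and 5.05 after TLR2.CD40. All stimulated arrays lay below the unstimulated ones. Psmb10 fell 1.98-fold after anti-CD40 (-0.99 ± 0.18, adjusted p = 0.0119). After TLR2.CD40 its difference was -0.60 ± 0.18 with an adjusted p of 0.0501, called with the slide as a block and on slide 1 alone at the same size. The slide block fit also called it after anti-CD86 (-0.27 ± 0.06) and TLR2.CD86 (-0.42 ± 0.06). The single TLR2.CD86 array on slide 1 gave -0.44.

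Psmb8, which replaces Psmb5, read 5.31 on both unstimulated arrays, 4.64 and 4.19 after anti-CD40, and 4.94 and 4.90 after TLR2.CD40. It fell 1.86-fold after anti-CD40 (-0.89 ± 0.21, adjusted p = 0.0279), and its second probe gave -0.83 ± 0.22 (adjusted p = 0.0395). Its TLR2.CD40 difference, -0.39 ± 0.21 (adjusted p = 0.241), was called with the slide as a block and on slide 1 alone. Psmb9, which replaces Psmb6, read 5.09 and 5.08 in unstimulated cells, 4.58 and 4.08 after anti-CD40, and 4.99 and 4.96 after TLR2.CD40. Its anti-CD40 difference was -0.75 ± 0.24 (adjusted p = 0.07), called with the slide as a block (-0.53 ± 0.06). The single anti-CD40 array on slide 1 gave -0.50. After TLR2.CD40 the Psmb9 difference was -0.11 ± 0.24 (adjusted p = 0.822). The calls of both Psmb8 and Psmb10 after anti-CD40 were lost without either unstimulated array (adjusted p from 0.0828 to 0.14) or without anti-CD40 replicate 2 (0.137 and 0.0576), and that of Psmb8 also without either TLR2.CD40 array (0.053 each). Both were lost with scaling on the array median, where the differences were -1.46 for Psmb8 (adjusted p = 0.115) and -1.55 for Psmb10 (0.0945). In the 12 arrays, Psmb8 correlated with Psmb10 at Pearson's r = 0.96 and with Psmb9 at 0.94, and at 0.96 and 0.92 after the mean of each slide was removed. These values describe arrays that share slides and conditions.

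Each immunoproteasome subunit was next set against the constitutive subunit it replaces, as the log2 difference within an array minus its mean in unstimulated cells, a measure added after the values were seen. For Psmb10 over Psmb7 the arrays read -0.29 and -0.34 after Pam2CSK4, -0.49 and -0.49 after anti-CD86, -0.63 and -0.60 after TLR2.CD86, -0.99 and -0.96 after anti-CD40, and -0.98 and -1.10 after TLR2.CD40, against 0.04 and -0.04 in unstimulated cells. No stimulated array overlapped the unstimulated ones, and the 2 arrays of a condition that lay on different slides differed by at most 0.05. For Psmb8 over Psmb5 the mean was -0.39 ± 0.02 (SD, n = 2) after anti-CD40 and -0.32 ± 0.02 after TLR2.CD40, but 0.16 ± 0.03 after anti-CD86. For Psmb9 over Psmb6 the mean was -0.29 ± 0.08 after anti-CD40 and -0.04 ± 0.07 after TLR2.CD40, but 0.28 ± 0.01 after Pam2CSK4, 0.27 ± 0.07 after anti-CD86 and 0.25 ± 0.06 after TLR2.CD86. The means of the 3 pairs thus differed in size and, after anti-CD86, in sign, and the pairs were not tested against each other. With 2 arrays against 2, a two-sided exact permutation test cannot give a p under 0.333, so that none of these differences could pass a threshold.

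**Figure D5:**
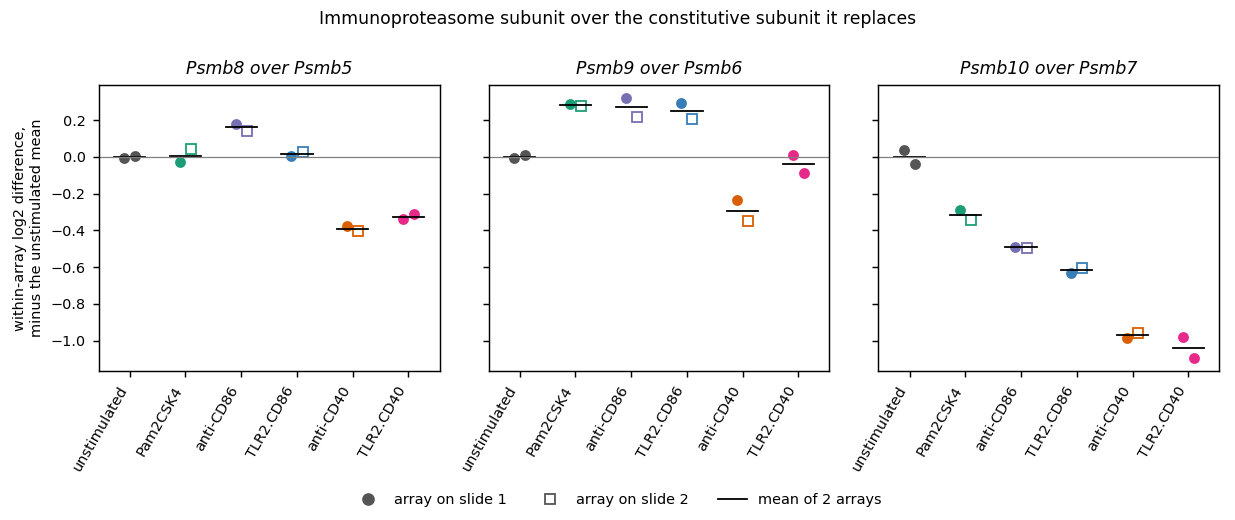
Log2 difference within each array between an immunoproteasome subunit and the constitutive subunit it replaces, minus the unstimulated mean (y axis), in 6 conditions (x axis) for 3 pairs. Circles are arrays on slide 1, open squares arrays on slide 2 and lines the mean of 2 arrays. Psmb10 over Psmb7 descends from -0.32 after Pam2CSK4 to -1.04 after TLR2.CD40, and the other pairs lie below 0 on both arrays after anti-CD40.

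Among the constitutive subunits, 0 of 3 were called in any comparison with unstimulated cells without a slide term. Psmb6 had differences of -0.46 after Pam2CSK4, -0.60 after both anti-CD86 and TLR2.CD86, -0.46 after anti-CD40 and -0.07 after TLR2.CD40 (SE 0.21 each). Psmb5 had differences of -0.27, -0.49, -0.42, -0.50 and -0.06 in the same order (SE 0.22 each). The Psmb7 differences lay between -0.02 and 0.07 except after TLR2.CD40 (0.44 ± 0.18, adjusted p = 0.133). The positive values of Psmb9 over Psmb6 thus came with lower Psmb6 signals. Psmb7 was called in the slide block fit after TLR2.CD40 (0.44 ± 0.07), Psmb6 after Pam2CSK4 (-0.27 ± 0.05), anti-CD86 (-0.42 ± 0.05), TLR2.CD86 (-0.41 ± 0.05) and anti-CD40 (-0.27 ± 0.05), and Psmb5 after anti-CD86 (-0.30 ± 0.08) and anti-CD40 (-0.31 ± 0.08).

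Nlrc5 was the dimmest member and the one that rose most. Its log2 signal was -2.96 and -3.19 in unstimulated cells, -2.72 and -3.01 after Pam2CSK4, -2.51 and -2.64 after anti-CD86, -2.67 and -2.46 after TLR2.CD86, -2.87 and -2.69 after anti-CD40, and -1.90 and -1.94 after TLR2.CD40. The TLR2.CD40 arrays lay above all others, and below them anti-CD86 overlapped TLR2.CD86, and Pam2CSK4 overlapped both anti-CD40 and unstimulated cells. Nlrc5 rose 2.23-fold after TLR2.CD40 (1.15 ± 0.15, adjusted p = 0.00226), a call that held without any 1 array, with the slide as a block and on slide 1 alone, and that ended when arrays were scaled on their median (1.05, adjusted p = 0.427). Against Pam2CSK4 alone the difference of TLR2.CD40 was 0.95 ± 0.15 (adjusted p = 0.00868), against anti-CD40 alone 0.86 ± 0.15 (adjusted p = 0.0263) and against TLR2.CD86 0.65 ± 0.15 (adjusted p = 0.0304). The call against Pam2CSK4 was lost without either TLR2.CD40 array (adjusted p = 0.0714 and 0.0641) or Pam2CSK4 replicate 2 (0.0626). The call against TLR2.CD86 was lost without either array of TLR2.CD40 (0.158 and 0.137), of TLR2.CD86 (0.117 and 0.0655) or of unstimulated cells (0.0515 each), and that against anti-CD40 without any 1 array of TLR2.CD40, anti-CD40, anti-CD86 or unstimulated cells (0.0511 to 0.162). After anti-CD86 the difference was 0.50 ± 0.15 (adjusted p = 0.109) and after TLR2.CD86 0.51 ± 0.15 (adjusted p = 0.0684), both called with the slide as a block and neither on slide 1 alone.

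The comparisons between stimuli ask what the second signal adds. Without a slide term, TLR2.CD86 against Pam2CSK4 called 0 of 10 members (1 with an unadjusted p under 0.05) and 0.0633% of all probes. TLR2.CD86 against anti-CD86 called 0 of 10 (also 1) and 0.225% of all probes. In the second of these, Tap2 was lower on both slides, by 0.28 on slide 1 and on slide 2 and without overlap (-0.28 ± 0.10, adjusted p = 0.467). TLR2.CD40 against Pam2CSK4 called 2 of 10 members (9.91% of all probes), against anti-CD40 2 of 10 (2.9%) and against TLR2.CD86 2 of 10 (12.2%), and in each case these were Nlrc5, which was higher, and Tap2, which was lower. Tap2 differed by -0.78 ± 0.10 from Pam2CSK4 (adjusted p = 0.00395), by -0.56 ± 0.10 from anti-CD40 (adjusted p = 0.0285) and by -1.08 ± 0.10 from TLR2.CD86 (adjusted p = 0.000935, 2.11-fold lower). The first and the last of these held without any 1 array, and the second was lost without any 1 array other than those of TLR2.CD86 and anti-CD40 replicate 1 (adjusted p from 0.0504 to 0.221). On slide 1 alone the calls of Tap2 and Nlrc5 against anti-CD40 were also lost (adjusted p = 0.0808 and 0.0705). Scaling on the array median reduced the Tap2 difference from anti-CD40 to -0.10 (adjusted p = 0.893). For TLR2.CD86, the slide block fit called 2 of 10 members against Pam2CSK4, 1 higher and 1 lower, beside 3387 of 31599 probes. Against anti-CD86 it called 0 of 10, beside 2381 probes. For TLR2.CD40, it called 6 of 10 members against Pam2CSK4 (31.4% of all probes), 7 against anti-CD40 (15%) and 5 against TLR2.CD86 (34.5%). The 7 against anti-CD40 included all 3 immunoproteasome subunits, which were higher with Pam2CSK4 added, Psmb9 by 0.42 ± 0.06, Psmb8 by 0.32 ± 0.07 and Psmb10 by 0.23 ± 0.06. None of these 3 was called without a slide term (0.64 ± 0.24, 0.51 ± 0.21 and 0.38 ± 0.18) or on slide 1 alone (0.40, 0.28 and 0.20).

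The interaction, that is the log2 effect of both signals minus the sum of the single effects, was called for 0 of 10 members with anti-CD86 (1 with an unadjusted p under 0.05, Tap2, and 0.019% of all probes called) and for 0 of 10 with anti-CD40 (5 with an unadjusted p under 0.05, and 1.15% of all probes called). A slide block brought the CD40 by TLR2 interaction to 3 of 10 members called (8.41% of all probes), Tap2 at -0.73 ± 0.10, B2m at 0.47 ± 0.10 and Psmb10 at 0.39 ± 0.08. Quantile normalization turned the B2m value to -0.05. On slide 1 alone, which holds each single signal on 1 array, none of these was called.

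Other genes of the pathway were counted from lists that hold no member. Proteasome activators and assembly chaperones had 3 of 8 genes higher and 0 lower after TLR2.CD40 (8.52% of all probes were higher and 9.65% lower), with a median log2 fold change of 0.06 beside 0.01 over all probes. These were Psme2, a subunit of the PA28 activator (0.67 ± 0.15), Psme3 (0.58 ± 0.15) and the assembly chaperone Psmg2 (0.69 ± 0.16). After anti-CD40, 1 of 8 was higher (6.15% of all probes) and 0 lower (10.6%), namely Psme3 (0.76 ± 0.15). Peptide loading and trimming genes had 1 of 13 higher after TLR2.CD40, the aminopeptidase Lap3 (0.50 ± 0.12), and 1 of 13 lower after TLR2.CD86, the chaperone Canx (-0.55 ± 0.14), where 3.39% of all probes were higher and 7.23% lower. Other 20S core subunits had 1 of 11 higher (Psma4, 0.60 ± 0.14) and 1 lower (Psma1, -0.65 ± 0.12) after TLR2.CD40.

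Nonclassical and other class I genes had 1 of 20 tested higher (8.52% of all probes) and 6 lower (9.65%) after TLR2.CD40, with a median of 0.19. H2-Q9 was higher after 4 of 5 stimuli, by 0.68 ± 0.12 after anti-CD86 (0.946% of all probes were higher and 1.19% lower), 0.75 ± 0.12 after TLR2.CD86, 0.92 ± 0.12 after anti-CD40 and 0.88 ± 0.12 after TLR2.CD40. Near-identical class I genes can share probe signal, so that this probe, like those of H2-K1 and H2-D1, is uncertain as to its gene. Lower after TLR2.CD40 were, among others, the iron regulator gene Hfe (-1.02 ± 0.29), the CD1 lipid-presenting gene Cd1d1 (-0.59 ± 0.14), the MAIT cell ligand gene Mr1 (-0.61 ± 0.12) and H2-T10 (-0.61 ± 0.13). Azgp1, a secreted class I-like protein gene, was not well above background on either TLR2.CD40 array and was at least 2.47-fold lower there (adjusted p = 0.00158), taking the lowest signal well above background on each array as the limit.

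Regulators of class I expression had 6 of 31 higher and 3 lower after TLR2.CD40, and 4 higher and 5 lower after anti-CD40. For this and the following lists, 8.52% of all probes were higher and 9.65% lower after TLR2.CD40. After anti-CD40 these shares were 6.15% and 10.6%. The NF-kB gene Nfkb1 rose by 1.34 ± 0.16 and Nfkb2 by 1.19 ± 0.23 after TLR2.CD40, where Irf1, an activator of class I and immunoproteasome genes, rose by 0.75 ± 0.15. Nfkb1 was saturated on 1 of 2 TLR2.CD40 arrays and on both anti-CD40 arrays, so that its rise may be larger than measured. After anti-CD40, Irf2 fell by 1.08 (SE 0.17), and Stat2, which transmits interferon signals, by 0.68 (SE 0.16). Interferon-stimulated genes had 0 of 36 higher and 5 lower after anti-CD40, with a median of -0.36, and 3 higher and 6 lower after TLR2.CD40, with a median of -0.14. The 3 higher were Gbp5 (0.73 ± 0.11), Usp18 (0.74 ± 0.16) and Ifi47 (0.51 ± 0.14). NF-kB targets had 12 of 17 higher and 0 lower after TLR2.CD40 and 11 higher after anti-CD40, among them Icam1 (2.84 ± 0.12 and 2.70 ± 0.12) and Il2ra (4.22 ± 0.12 and 3.63 ± 0.12). MHC class II presentation genes had 1 of 12 higher after TLR2.CD40, H2-DMa (0.75 ± 0.20), and 1 lower after anti-CD40, H2-DMb1 (-0.67 ± 0.19).

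Markers of B cells were well above background on all arrays in 8 of 8 cases, with the mean log2 signal of Ms4a1 at 6.69 in unstimulated cells. Markers of other cells were also read: 6 of 7 T cell, 4 of 5 NK cell and 7 of 7 myeloid markers were well above background on all arrays. Myeloid markers had 0 of 7 higher and 1 lower after anti-CD86, 4 lower after TLR2.CD86, 2 after anti-CD40 and 4 after TLR2.CD40, among them S100a8 each time. Of all probes, 1.19%, 7.23%, 10.6% and 9.65% were lower after these stimuli, in the same order. S100a9 was saturated on all 12 arrays, and the summed log2 level of the other 6 myeloid markers ranged from 7.19 to 7.20 in unstimulated cells, 6.89 to 6.94 after Pam2CSK4, 6.70 to 6.71 after anti-CD86, 6.64 to 6.69 after TLR2.CD86, 6.46 to 6.62 after anti-CD40 and 6.76 to 6.77 after TLR2.CD40. All stimulated arrays lay below the unstimulated arrays in this sum. NK cell markers summed to 3.44 to 3.47 in unstimulated cells and to 2.89 to 3.33 in stimulated cells, and 2 of 5, Gzma and Klrb1c, were lower after anti-CD40. Among red cell markers, Hbb-b1 had a log2 signal of 5.91 in unstimulated cells. The part of these cells in the changes of Psmb8, Psmb10, Tap2 and Nlrc5 was not tested. The genes most like the mean centred signal of the 10 members over 12 arrays, among 25969 probes above background on all arrays, were Tars2 (Pearson's r = 0.99), Srpk3 (0.98), Ctsa (0.98), Zfpl1 (0.98) and Lrrc45 (0.98), and after removal of slide means r was 0.96 to 0.99. That mean was not a profile all members shared. Over the 45 pairs of members, r had a median of 0.29 (range -0.50 to 0.96), and 0.20 (-0.86 to 0.96) after removal of slide means.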

How the data were processed

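The authors hybridised Cy3-labelled RNA to a custom one-colour Agilent mouse array. The deposited scanner files hold intensity values per spot, of which the processed signal was used, corrected for background within each array by Feature Extraction. A further deposited table of log2 values equalled the log2 processed signal minus a constant per array near its 75th percentile, and it served as an alternative. Other columns deposited in the files, such as saturation and background flags, were used as marks. The main values were log2 processed signal minus the 75th percentile of the array, without control spots and outlier spots (5 to 35 per array), and with the mean taken over repeat spots of a probe. Between 987 and 1206 spots per array were saturated and stayed in.

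A probe was tested if both arrays of any 1 condition read it well above background (31669 of 61307), less 70 with a missing value, which left 31599. limma 3.58.1 in R 4.3.3 fitted 1 coefficient per condition over 12 arrays with empirical Bayes moderation and Benjamini-Hochberg adjustment over all probes tested. The fit was tested on simulated data that held no slide effect and no correlation between arrays. That simulation cannot speak to the slide difference. Alternatives were other normalizations and filters, the slide and the replicate number as blocks, slide 1 alone, subsets of arrays and other probes. The genes named were the members, the genes with the largest changes in each list, and the 5 most like the members. The members and lists were chosen with earlier results of these data known. Promoters came from RefSeq (GRCm38.p6), and the array was annotated to mm9, so no array coordinate is given. Accessions of all 17 probes matched the RefSeq table under the same symbol. Figures came from matplotlib 3.10.9 and tables from pandas 2.3.3 and numpy 2.4.6 under Python 3.11.15. The number of arrays limits the precision.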

Additional observations from a re-analysis of the deposited data

Results flagged for a closer look

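The effect of the antibody given with Pam2CSK4 differed between anti-CD40 and anti-CD86 for 2 members in the direct test of that difference, Tap2 (log2 difference of TLR2.CD40 and TLR2.CD86 -1.08 ± 0.10) and Nlrc5 (0.65 ± 0.15). The Nlrc5 call was lost with median (limma adjusted p = 0.677) and quantile normalization (0.113). It was also lost with no filter on dim probes (0.129) and with only the arrays compared (0.114). That of Tap2 was lost with median normalization (0.596) and with only the arrays compared (0.057). The effect of Pam2CSK4 differed with and without anti-CD40 for 3 members when the slide was a block, Tap2 (-0.73 ± 0.10), B2m (0.47 ± 0.10) and Psmb10 (0.39 ± 0.08), and for none of the 10 members without a slide term (limma, 5 with an unadjusted p under 0.05).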

How the results depend on the processing

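Counts of members called are given in the order of 5 stimuli against unstimulated cells (Pam2CSK4, anti-CD86, TLR2.CD86, anti-CD40, TLR2.CD40), TLR2.CD86 against Pam2CSK4 and anti-CD86, TLR2.CD40 against Pam2CSK4, anti-CD40 and TLR2.CD86, both interactions (CD86, CD40) and any difference. Without a slide term they were 0, 1, 1, 2, 2, 0, 0, 2, 2, 2, 0, 0 and 3. With a slide block they were 1, 5, 5, 5, 7, 2, 0, 6, 7, 5, 0, 3 and 8. Of all 31599 probes, the slide block called 18924 for any difference and 3387 for TLR2.CD86 against Pam2CSK4. Slide 1 alone is left out of these counts, since 4 conditions have 1 array there. With median normalization all counts of members were 0. That scaling shifted the median of all probes by -0.57 (anti-CD40) to -0.11 (TLR2.CD40), and all 12 calls of a member kept their direction and lost the threshold, with Tap2 nearest to 0 (TLR2.CD40 against anti-CD40, -0.10). With no filter on dim probes they were 0, 0, 0, 0, 1, 0, 0, 2, 0, 1, 0, 0 and 1, and with only the arrays compared 0, 0, 0, 0, 6, 0, 0, 0, 0 and 0 for the first 10. The 6 members called after TLR2.CD40 in that last setting came beside 12731 of 31599 probes. With normexp correction, or with probes well above background on all arrays, the member counts were 0, 1, 2, 2, 3, 0, 0, 2, 2, 2, 0, 1 and 3, and with quantile normalization 0, 1, 1, 2, 3, 0, 0, 1, 2, 1, 0, 1 and 2. The authors' value table, and the brightest probe whether saturated or not, gave the main counts. The one way test of the methods gave 2 for any difference. Leaving out 1 array at a time gave 0 to 0, 0 to 1, 0 to 1, 0 to 3, 1 to 3, 0 to 0, 0 to 0, 1 to 2, 0 to 2, 1 to 2, 0 to 0, 0 to 0 and 1 to 3. Apart from settings that change the number of probes or arrays, the cause was not tested.

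With the replicate number as a replicate block the counts were 0, 1, 3, 4, 4, 0, 0, 2, 2, 2, 0, 1 and 4, and all 12 calls were kept. Of all 31599 probes, this block called 7755 after TLR2.CD86, 9411 after anti-CD40, 8535 after TLR2.CD40 and 11796 for any difference. Deviations of same-numbered arrays correlated at 0.54 to 0.67 among the 4 conditions split over slides and at -0.11 to 0.07 for all other pairs of conditions, so that the numbers were not taken to pair the samples.

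Of 46 changes of a member called without or with the slide as a block, these turned sign. Quantile normalization turned B2m after anti-CD86 (0.0566), TLR2.CD86 (0.0831) and anti-CD40 (0.0602), for TLR2.CD40 against anti-CD40 (-0.000887) and against TLR2.CD86 (-0.0238) and for the CD40 interaction (-0.0486). Its saturated probe turned it after TLR2.CD86 (0.000234) and anti-CD40 (0.00831). Median normalization turned H2-D1 after Pam2CSK4 (-0.0233), anti-CD86 (-0.0427) and TLR2.CD86 (-0.0792), and Psmb10 for TLR2.CD40 against TLR2.CD86 (0.15). Leaving out 1 array, B2m ranged from -0.361 to 0.0206 after anti-CD86, -0.283 to 0.0755 after TLR2.CD86, -0.167 to 0.0576 after anti-CD40 and -0.00875 to 0.35 for TLR2.CD40 against TLR2.CD86, with the turned values without replicate 1 of anti-CD86, TLR2.CD86, anti-CD40 and TLR2.CD86. H2-D1 after anti-CD86 ranged from -0.0439 (without anti-CD86 replicate 1) to 0.238, Psmb10 for TLR2.CD40 against TLR2.CD86 from -0.165 to 0.109 (without TLR2.CD86 replicate 1), and Psmb8 for TLR2.CD40 against Pam2CSK4 from -0.275 to 0.0309 (without Pam2CSK4 replicate 1). Saturation limits the brightest probes of H2-K1 and B2m, and 2 arrays a condition limit all changes. The 2 slides also split at least 1 condition of every comparison other than TLR2.CD40 against unstimulated cells.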
